A study of Mus musculus with 12 samples.

Results

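The data are the 6 libraries of the Carm1 line, 1 per whole mouse embryo at embryonic day 12.5 (E12.5), of the 12 libraries in the series. Members were taken by label: 3 embryos labelled Carm1 null, here Carm1 KO/KO, and 3 labelled wild type, with all 23420 genes of the count table. The strain label of all 6 is C57BL/6, and the embryos came from crosses between heterozygous carriers of the Carm1tm1Mtb allele, which removes exons 2 and 3 from every cell, with no tissue-specific driver. The labels name no treatment. The other 6 libraries belong to the Pax3 line, with 3 embryos homozygous for Sp2H and 3 wild type at the same age, on a background labelled mixed, and they are used only where a difference between the lines was tested. Whole embryos were homogenized, so every value mixes all tissues, and fewer cells of a type and less RNA per cell cannot be told apart.

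CARM1 is a protein arginine methyltransferase, also called PRMT4, that places asymmetric dimethyl marks on histone H3 and on coactivators, splicing factors and chromatin remodelling proteins. It acts as a transcriptional coactivator for nuclear receptors and other factors, and mice without it die around birth. At E12.5 the liver is the main site of blood formation, the heart has its chambers, muscle fibres are forming and the neural tube holds both dividing progenitors and young neurons.

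The sequence that the KO allele lacks is shown first, because the targeted gene checks the labels. On the mouse genome GRCm38 (mm10), exon 2 of Carm1 lies at chr9:21569455-21569580 and exon 3 at chr9:21574487-21574593, both on the + strand. The 2 exons are coding throughout, with 126 and 107 bases. They are printed 5′ to 3′ from the GENCODE transcript.
Carm1 exon 2: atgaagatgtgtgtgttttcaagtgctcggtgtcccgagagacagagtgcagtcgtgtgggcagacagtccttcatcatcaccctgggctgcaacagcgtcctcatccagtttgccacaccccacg
Carm1 exon 3: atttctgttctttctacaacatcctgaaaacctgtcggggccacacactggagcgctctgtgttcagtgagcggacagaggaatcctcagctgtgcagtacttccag

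The counts cover all exons of Carm1 together, so the loss of exons 2 and 3 could not be read apart from the rest of the transcript. Carm1 had 71.3, 69.3 and 76.2 CPM (a gene's count scaled by library size and TMM factor) in the 3 Carm1 KO/KO embryos and 151, 145 and 137 CPM in the 3 wild-type embryos. No Carm1 KO/KO library reached the lowest wild-type library. The log2 fold change was -0.998 (standard error 0.05, edgeR adjusted p = 1.2e-15).

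Library totals ranged from 17183344 to 23297860 counts, and the first principal component of log2 CPM, with 44.61% of the variance, separated the 2 groups. Y-linked genes gave 4804 counts and Xist 398 in wild-type replicate 3, the pattern of a male embryo, while Xist had 32639 counts or more and the Y-linked genes 2 to 5 elsewhere, the pattern of female embryos. This library was left out in 1 alternative and given a term for Y-linked counts in 2 others, and a list's counts without it are given where they moved by over 1.5 times.

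A gene is called here when its adjusted p is below 0.05 by the edgeR quasi-likelihood test, adjusted by Benjamini and Hochberg's method over all genes tested. Of the 15811 genes tested, 2106 were called, which is 13.3%, with 868 (5.49%) higher in Carm1 KO/KO embryos and 1238 (7.83%) lower. These shares are the background for every gene list below. The lists were chosen with earlier results of these data known, so a share above the background describes a list and is no independent test. The 3 libraries of one group did not overlap the other 3 in 4740 genes, or 30.0% of those tested. Without wild-type replicate 3, 2029 genes were called, 1688 of them among the 2106. With a term for Y-linked counts 2026 were called in edgeR and 864 in DESeq2, against 1435 in DESeq2 with no such term. Correcting each library for length and GC content of the transcripts gave 3263 calls, 60.1% of them higher, against 41.2% in the fit reported here.

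Most changes were small. The median log2 fold change was 0.27 among genes called higher and -0.36 among genes called lower. Only 45 genes were called higher by over 1 on the log2 scale, while 145 were called lower by as much. By level, 14.9% of 2424 genes above 100 CPM were called, with a median absolute log2 fold change of 0.18, and 6.28% of 860 genes under 1 CPM, with a median of 1.62. A gene of low level had to change more to be called.

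**Figure D1:**
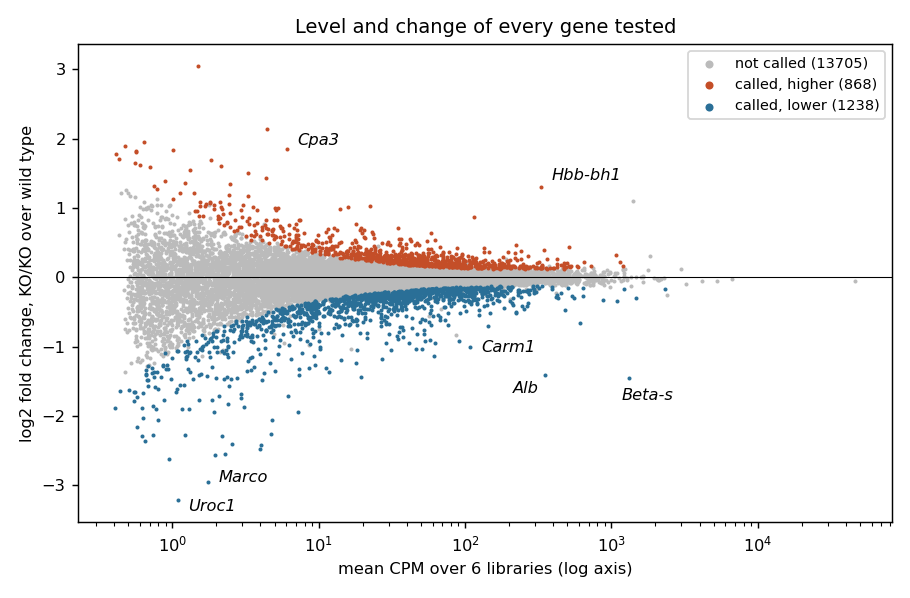
Each point is 1 of the 15811 genes tested, with its mean CPM over the 6 libraries on a log axis and its log2 fold change, Carm1 KO/KO over wild type. Called genes fan out at low levels, and Beta-s and Alb stand apart at high levels with log2 fold changes of -1.46 and -1.41.

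Genes of the fetal liver were among the strongest decreases. Hepatocytes secrete most plasma proteins, and Alb (albumin) and Afp (alpha-fetoprotein) are the most abundant of them in the embryo. Of 23 tested genes for secreted hepatocyte proteins, 17 were called lower and none higher, with a median log2 fold change of -0.93 against 0.00 over all genes tested. Of 20 genes of coagulation and fibrinolysis, 16 were called lower and none higher (median -0.998).

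Alb had 163, 219.6 and 199.8 CPM in Carm1 KO/KO and 474, 493 and 576 CPM in wild-type embryos. The groups were far apart, with every Carm1 KO/KO embryo below every wild-type embryo. The log2 fold change was -1.41 (standard error 0.15, edgeR adjusted p = 0.0079). Afp fell less, from 762, 671 and 821 CPM in wild-type to 447, 495 and 488 CPM in Carm1 KO/KO embryos (log2 fold change -0.66, edgeR adjusted p = 2.2e-07). Serpina6, the carrier of glucocorticoids in plasma, had 38.5, 39.1 and 38.1 CPM in Carm1 KO/KO and 88.9, 77.6 and 88.5 CPM in wild-type embryos. Its groups lay far apart in relation to their spread, with a log2 fold change of -1.14 and the same adjusted p as Carm1 (1.2e-15, edgeR). Serpina1a, a member of the antitrypsin family with near-identical copies between which reads may be split, had a log2 fold change of -1.41. Itih2, which binds hyaluronan, had -0.92, and Ttr, the carrier of thyroxine and retinol-binding protein, had -0.56.

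Several clotting factors fell. Fgg, the gamma chain of fibrinogen, had 5.54, 7.23 and 6.66 CPM in Carm1 KO/KO and 14.9, 15.3 and 18.0 CPM in wild-type embryos (log2 fold change -1.31, standard error 0.12, edgeR adjusted p = 9.2e-10). The log2 fold changes of the other fibrinogen chains were -1.04 for Fga and -0.80 for Fgb. Serpinc1 (antithrombin), Plg (plasminogen) and Serpinf2 (antiplasmin), which act against clotting, in fibrinolysis and against plasmin, had log2 fold changes of -1.27, -1.24 and -0.89. Genes for and against clotting fell together. F2 (prothrombin) had -1.01.

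Complement and lipid transport changed in part. Of 14 tested complement genes 6 were called lower and none higher (median -0.65), led by Hc (complement C5) with 1.32, 1.85 and 2.42 CPM in Carm1 KO/KO and 9.19, 7.27 and 6.83 CPM in wild-type embryos. Without wild-type replicate 3 or without Carm1 KO/KO replicate 1, 3 complement genes were called. Of 17 genes of lipoproteins and lipid transport, 9 were called lower and 2 higher (median -0.52). Fabp1, the fatty acid carrier of liver and gut, fell from 2.79, 2.19 and 5.85 to 0.878, 0.728 and 0.589 CPM (log2 fold change -2.29, edgeR adjusted p = 2.8e-04). Without Carm1 KO/KO replicate 1, 5 genes of this list were called lower, and none was called higher without Carm1 KO/KO replicate 2 or 3 or wild-type replicate 2 or 3. Apoc3, an apolipoprotein too low to be tested, had 49 counts in wild-type replicate 3 and 0 to 3 counts in each of the other 5 libraries.

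Enzymes of the liver were called in part. Of 28 genes of amino acid, urea and one-carbon metabolism, 8 were called lower and 2 higher (median -0.17). None was called higher without wild-type replicate 2 and 1 without Carm1 KO/KO replicate 1 or 2, and 4 were called lower when each of the 6 libraries had to hold at least 10 counts. The enzymes that fell most had low levels. Uroc1 (urocanase) fell from 1.84, 2.41 and 1.66 to 0.165, 0.392 and 0.0589 CPM, Bhmt (betaine-homocysteine methyltransferase) from 3.20, 3.57 and 3.32 to 0.658, 0.280 and 0.766 CPM, and Ftcd, of histidine breakdown, from 2.73, 3.31 and 3.95 to 1.43, 0.952 and 1.24 CPM. None of the 3 genes overlapped between the groups, as was so for 30.0% of all genes tested, and they were picked among the strongest calls of the list. Uroc1 held 3, 7 and 1 counts and Bhmt 12, 5 and 13 in the Carm1 KO/KO libraries. Both therefore passed the filter on low counts only through their wild-type libraries. Ugt2b34, a glucuronosyltransferase, had 2.91, 3.30 and 2.77 CPM in Carm1 KO/KO and 10.6, 11.9 and 12.2 CPM in wild-type embryos (log2 fold change -1.95, edgeR adjusted p = 1.0e-11). Pzp, a proteinase inhibitor of plasma, had -1.71.

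Some regulators of hepatocytes were called lower. Of 17 tested hepatocyte transcription factors, 3 (17.6%) were called lower, Hnf4a, Nr5a2 and Cebpa, against 7.83% of all genes, and none higher (median -0.12). Without Carm1 KO/KO replicate 1 or wild-type replicate 2, 1 of them was called. Hnf4a, a nuclear receptor required for hepatocyte differentiation, had 3.46, 6.11 and 5.30 CPM in Carm1 KO/KO and 13.6, 10.2 and 13.1 CPM in wild-type embryos (log2 fold change -1.30, standard error 0.16, edgeR adjusted p = 2.1e-06). Cebpa had a log2 fold change of -0.45 and lost its call in 7 of 16 alternatives in processing. Foxa2 and Prox1, which are also needed for liver development, were not called, with log2 fold changes of 0.25 and -0.12. None of the 21 genes of cholesterol synthesis was called (median 0.01), a pathway active in most tissues.

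**Figure D2:**
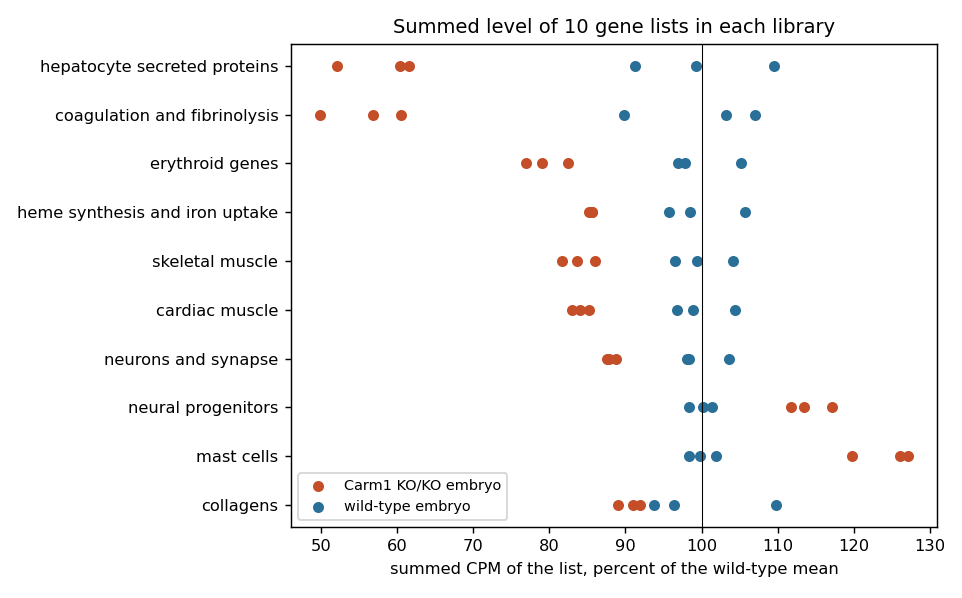
Each point is the summed CPM of a gene list in 1 library, as a percent of the mean of the 3 wild-type libraries. Carm1 KO/KO embryos lay below every wild-type embryo in 8 of these lists, with the widest gaps in secreted hepatocyte proteins and coagulation, and above them in neural progenitors and mast cells. The lists shown were picked from 60, so the number without overlap is no result about all lists. Sums of some lists not shown also did not overlap, lower for FGF ligands and osteoblasts and higher for sympathetic neurons, while others, such as cholesterol synthesis, overlapped.

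Globin genes were called in both directions. Mouse red cells of the yolk sac express the embryonic globins Hbb-y, Hbb-bh1 and Hba-x, and red cells formed in the fetal liver express the adult genes. The file's symbol Beta-s, matched to Hbb-bs through an older symbol, is an adult beta globin. Beta-s had 644, 773 and 688 CPM in Carm1 KO/KO and 1624, 1865 and 2289.7 CPM in wild-type embryos, a gap larger than the spread within either group (log2 fold change -1.46, standard error 0.16, edgeR adjusted p = 0.0083). Hbb-bh1 went the other way, with 451, 482 and 469.8 CPM in Carm1 KO/KO and 139.8, 181 and 247 CPM in wild-type embryos (log2 fold change 1.30, edgeR adjusted p = 0.037). Its call was lost without any 1 of 4 libraries, each of the 3 Carm1 KO/KO libraries or wild-type replicate 2, with adjusted p up to 0.14.

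The other 2 embryonic globins were not called in the fit reported here. Hba-x, the embryonic alpha-like chain, had 1761, 1828 and 2125 CPM in Carm1 KO/KO and 636, 870.1 and 1164 CPM in wild-type embryos. The groups did not overlap, but the adjusted p was 0.077 in edgeR. Hba-x was called higher in 7 of 16 alternatives, among them DESeq2 (adjusted p = 8.1e-04), the edgeR fit of all 12 libraries (0.021) and edgeR without wild-type replicate 3 (0.045), and its edgeR adjusted p reached 0.22 without wild-type replicate 2. Hbb-y had 4715, 5110.2 and 5639 CPM in Carm1 KO/KO and 3692, 5266 and 7031 CPM in wild-type embryos, and its groups overlapped (log2 fold change -0.05). The adult genes Hba-a1, Hba-a2, Hbb-b1 and Hbb-b2 held at most 1 count in any of the 6 libraries. Hba-a1 and Hba-a2 are near-identical copies between which aligned reads may not be assigned. The handling of multiply aligned reads is not given, so counts of Beta-s may also miss reads shared with other beta globin genes.

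Shares of the 3 beta-like globins were computed within each embryo, so that they do not scale with its total globin, a measure chosen after the values were seen. Beta-s took 11.1%, 12.1% and 10.1% of beta-like globin counts in Carm1 KO/KO embryos and 29.8%, 25.5% and 23.9% in wild-type embryos. The mean was 11.1% ± 1.01 in Carm1 KO/KO and 26.4% ± 3.02 in wild-type embryos (SD, n = 3 each), and the exact permutation test gave a two-sided p of 0.1, the smallest that 3 against 3 libraries allow. Hbb-bh1 took 7.42% ± 0.447 and 2.54% ± 0.0582 of these counts, and Hbb-y 81.5% ± 1.37 and 71.1% ± 3.02, again with exact permutation p of 0.1 (n = 3 each). In the Pax3 line the share of Beta-s was 10.4% ± 2.02 in Pax3 Sp2H/Sp2H and 11.1% ± 0.71 in wild-type embryos (exact permutation p = 0.6, n = 3 each). The lines differ in strain, colony and mutation together, which cannot be told apart.

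**Figure D3:**
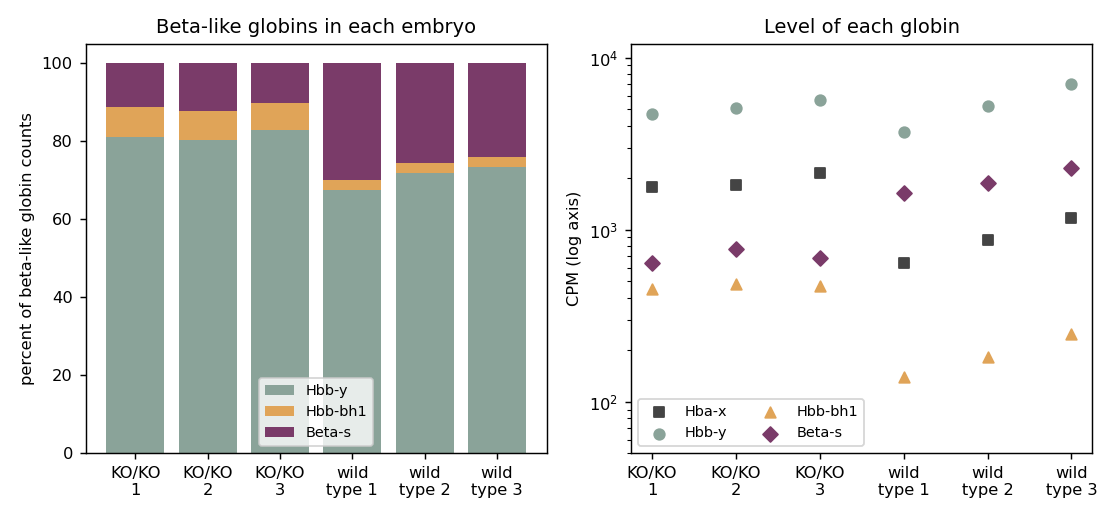
The left panel gives the percent of beta-like globin counts on Hbb-y, Hbb-bh1 and Beta-s in each of the 6 embryos, and the right panel the CPM of 4 globins on a log axis. Beta-s made up 10.1% to 12.1% in Carm1 KO/KO and 23.9% to 29.8% in wild-type embryos.

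Most red cell genes beside the globins were called lower. Of 33 tested erythroid genes 26 were called lower and none higher, with a median log2 fold change of -0.51, and the count stayed at 25 or 26 when any 1 library was left out. In 1 fit of all 12 libraries, which shares the spread with the Pax3 line, 16 were called lower. Gata1, the master regulator of red cell development, had 15.4, 14.2 and 10.7 CPM in Carm1 KO/KO and 20.04, 21.2 and 21.0 CPM in wild-type embryos (log2 fold change -0.62, edgeR adjusted p = 4.7e-05). Klf1, which activates adult beta globin, had -0.57, and Tal1, a partner of GATA1, -0.58. Epb4.9 (dematin) and Slc4a1 (band 3), of the red cell membrane and its skeleton, had -0.65 and -0.46. Epor, the receptor for erythropoietin, had 13.7, 13.6 and 12.8 CPM in Carm1 KO/KO and 19.98, 19.5 and 21.8 CPM in wild-type embryos (log2 fold change -0.62, edgeR adjusted p = 8.1e-06).

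Genes of heme synthesis had a smaller median change. Of 20 genes of heme synthesis and iron uptake, 13 were called lower and none higher (median -0.22). Cpox, which acts late in the pathway, had 109, 111 and 108 CPM in Carm1 KO/KO and 170.1, 178 and 184 CPM in wild-type embryos (log2 fold change -0.70, standard error 0.045, edgeR adjusted p = 5.3e-13). Fech, the last enzyme, had -0.47, Alas2, the first enzyme in red cells, -0.40, and Slc25a37, which carries iron into mitochondria, -0.36. Each of these genes was lower in all 3 Carm1 KO/KO embryos than in any wild-type embryo.

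Regions just before the start of 2 genes with large changes are shown, because they let the start of each gene be read beside its values. The 2 genes were picked together with the motif, so their matches say nothing about how often changed genes hold it. They are the 250 bases before the RefSeq start on GRCm38.p6, 5′ to 3′ on the strand of the gene. AGATAA, the GATA motif, or its reverse complement TTATCT is in capitals. Beta-s is at chr7:103827929-103828178 on the - strand and Cpa3 at chr3:20242182-20242431 on the - strand.
Beta-s: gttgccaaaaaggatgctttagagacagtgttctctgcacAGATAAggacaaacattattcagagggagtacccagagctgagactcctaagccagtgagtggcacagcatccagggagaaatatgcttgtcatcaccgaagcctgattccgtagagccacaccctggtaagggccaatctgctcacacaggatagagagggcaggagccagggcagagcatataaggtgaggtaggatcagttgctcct
Cpa3: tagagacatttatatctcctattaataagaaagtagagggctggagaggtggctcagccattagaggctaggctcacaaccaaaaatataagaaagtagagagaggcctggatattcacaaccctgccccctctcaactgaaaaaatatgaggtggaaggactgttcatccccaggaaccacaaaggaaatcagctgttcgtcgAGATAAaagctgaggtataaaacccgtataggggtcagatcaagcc
The match begins 210 bases before the start in Beta-s and 46 in Cpa3. Of all 32851 promoter regions of this length in the table, 9.99% hold AGATAA on either strand. Among regions matched to erythroid genes, 7 of 27 hold AGATAA, and among those of heme synthesis and iron uptake 2 of 24. A match of letters is a description and not a binding site.

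Beyond the red cells, calls among blood cell genes went in both directions. Mast cells are tissue cells that store proteases in granules. Of 11 tested mast cell genes 5 were called higher and none lower, namely Cpa3, Cma1, Ms4a2, Gata2 and Kit, and 14 others in the list were too low to be tested. Cpa3, a carboxypeptidase of mast cell granules, had 9.60, 9.52 and 9.31 CPM in Carm1 KO/KO and 1.96, 2.45 and 3.36 CPM in wild-type embryos (log2 fold change 1.86, standard error 0.16, edgeR adjusted p = 6.6e-10). Cma1 (chymase) had 2.80, 2.52 and 2.65 CPM in Carm1 KO/KO and 0.534, 0.344 and 0.0975 CPM in wild-type embryos. The tryptase Tpsb2, not tested, had 13, 12 and 6 counts in Carm1 KO/KO embryos and 0 in each wild-type embryo. Gata2 and Kit are also expressed by blood progenitors and other cells, and their log2 fold changes were 0.27 and 0.19. Hdc, Hpgds and Il1rl1, further genes of mast cells, were not called. Of the 11 genes, 2 were called without Carm1 KO/KO replicate 1, and 3 without Carm1 KO/KO replicate 2 or in DESeq2. When each of the 6 libraries had to hold at least 10 counts, 3 were called. Wild-type embryos had 9, 8 and 2 counts of Cma1 and 2, 5 and 5 of Ms4a2. These 2 genes therefore passed the filter on low counts only through their Carm1 KO/KO libraries.

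Among myeloid genes, Mpo (myeloperoxidase, made by early granulocytes) had 27.5, 31.3 and 31.3 CPM in Carm1 KO/KO and 16.7, 12.6 and 15.1 CPM in wild-type embryos (log2 fold change 1.03, edgeR adjusted p = 7.7e-10). Of 12 tested neutrophil genes, 1 was called higher, Mpo, and 3 lower. Those called lower were Ltf, Ngp and Camp, granule proteins of later neutrophils, with log2 fold changes of -1.10, -0.91 and -1.07. Their highest values were in wild-type replicate 3, and without it, or without Carm1 KO/KO replicate 2, 1 neutrophil gene was called lower. Camp overlapped between the groups and lost its call in 10 of 16 alternatives. Of 26 macrophage genes, 4 were called higher (Fcgr1, Fcgr3, Ctss and Mpeg1) and 4 lower (Marco, Emr1, Lyve1 and Cd5l). The number called higher was 1 without Carm1 KO/KO replicate 1 or wild-type replicate 2 and 8 without wild-type replicate 3. Marco, a scavenger receptor, had 0.329, 0.504 and 0.354 CPM in Carm1 KO/KO and 3.26, 3.10 and 2.97 CPM in wild-type embryos, while the macrophage receptor Csf1r was not called (log2 fold change 0.19). With 6, 9 and 6 counts in the Carm1 KO/KO libraries, Marco passed the filter on low counts only through its wild-type libraries. Of 22 megakaryocyte genes 7 were called lower and 1 higher (median -0.24), with Pf4 and Ppbp, chemokines of platelet granules, at -0.80 and -1.13. Of the megakaryocyte genes, 3 were called lower without Carm1 KO/KO replicate 1 and 4 without either of the other 2 Carm1 KO/KO libraries, and 2 were called higher without Carm1 KO/KO replicate 2 or wild-type replicate 1.

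**Figure D4:**
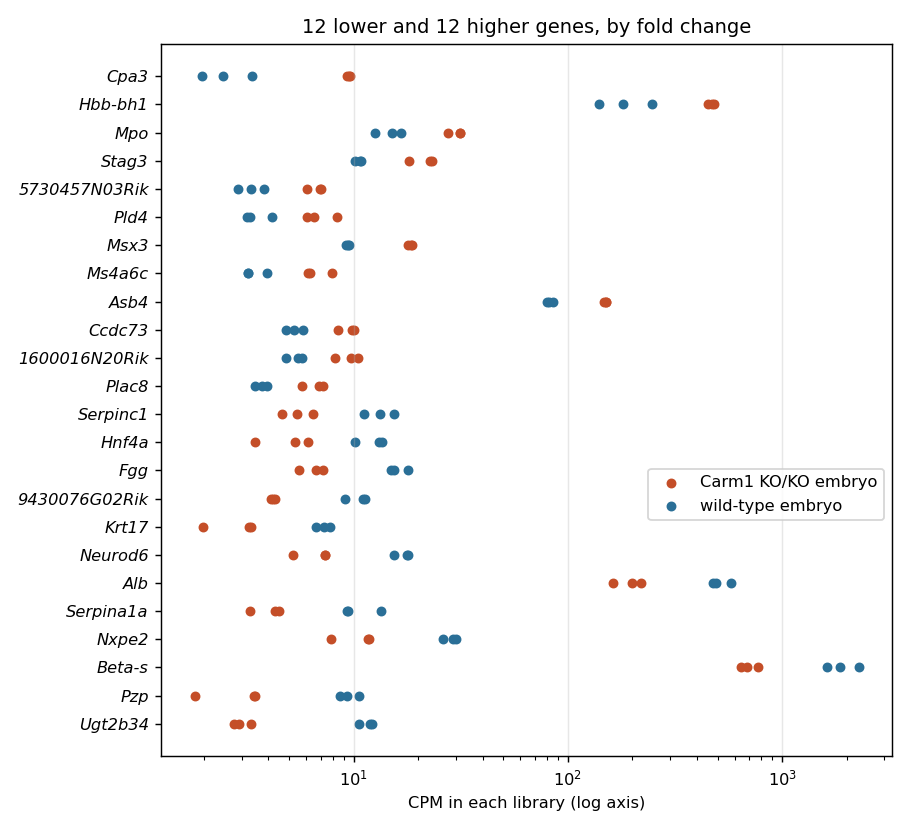
Each point is the CPM of 1 gene in 1 library on a log axis, for the 12 genes called higher and the 12 called lower with the largest fold changes at a mean of at least 5 CPM. The 2 groups do not overlap for any of the 24 genes, which was a condition of the choice.

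Calls among genes of striated muscle were mostly lower. Of 48 tested skeletal muscle genes 21 were called lower and 2 higher (median -0.25), and of 47 cardiac muscle genes 19 lower and none higher (median -0.32). Many sarcomere genes are active in both tissues at this age, and their parts cannot be told apart in a whole embryo. Without Carm1 KO/KO replicate 1 or 3, 1 skeletal muscle gene was called higher. Acta1, skeletal alpha-actin, had 41.8, 38.6 and 40.8 CPM in Carm1 KO/KO and 73.7, 78.1 and 74.8 CPM in wild-type embryos (log2 fold change -0.90, standard error 0.055, edgeR adjusted p = 1.1e-13). Mylpf, a light chain of fast muscle myosin, had -0.64. Myh6 and Myh7, the cardiac myosin heavy chains, had -0.47 and -0.32, and Myl4, the atrial light chain, -0.41. Nppa, the natriuretic peptide of the atria, was not called (log2 fold change -0.12). Of 20 smooth muscle genes 3 were called higher and 3 lower. Their counts turned on single libraries, with 1 called higher without any 1 Carm1 KO/KO library or wild-type replicate 2 and 5 without wild-type replicate 1, and 1 called lower without Carm1 KO/KO replicate 1 or 2 and 5 without wild-type replicate 3. Of 59 regulators of heart development 8 were called higher and 7 lower, with a median of 0.02, and without Carm1 KO/KO replicate 1, without replicate 3 of that group or without wild-type replicate 2, 5 were called higher.

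Calls among progenitor genes of the nervous system were mostly higher and those among neuronal genes lower. Of 39 tested neural progenitor genes 22 were called higher and 2 lower (median 0.20), with none lower without Carm1 KO/KO replicate 1 or wild-type replicate 2 and 1 without Carm1 KO/KO replicate 3. Of 55 genes of neurons and synapses 28 were called lower and none higher (median -0.21). Nes (nestin, an intermediate filament of progenitors) had 603, 592 and 566 CPM in Carm1 KO/KO and 454, 453 and 397 CPM in wild-type embryos (log2 fold change 0.43, standard error 0.05, edgeR adjusted p = 1.3e-07). Sox2, which maintains progenitors, had 0.33, Hes5, a target of Notch, 0.55, and the Notch ligand Dll1 0.35. The summed level of the progenitor list was 4336 to 4547 CPM in Carm1 KO/KO and 3819 to 3937 CPM in wild-type embryos.

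Named neuronal genes were lower in Carm1 KO/KO embryos. Mapt (tau), which binds microtubules in axons, had 158, 160.4 and 154 CPM in Carm1 KO/KO and 208, 231 and 199 CPM in wild-type embryos (log2 fold change -0.44, edgeR adjusted p = 6.9e-08). Gria2, a subunit of AMPA receptors, had -0.54, Nsg2, an endosomal protein of neurons, -0.42, and Syt4, a synaptotagmin, -0.47. Neurod6, a transcription factor of excitatory neurons, had 5.21, 7.34 and 7.37 CPM in Carm1 KO/KO and 15.4, 17.7 and 18.0 CPM in wild-type embryos. Of 35 sensory neuron genes 9 were called lower and none higher (median -0.15). Of 54 clustered protocadherins, adhesion proteins that give neurons their identity, 15 were called lower and none higher (median -0.42). Protocadherins of 1 cluster share exons, so reads may be split between members, and without Carm1 KO/KO replicate 1, 9 were called. Among sympathetic neuron genes 3 of 20 were called higher and 1 lower, and 1 was called higher without Carm1 KO/KO replicate 1 or 3 or wild-type replicate 2.

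Calls among skeletal and skin genes were mostly lower. Of 21 cartilage genes 12 were called lower and 1 higher (median -0.28). Col9a3, a collagen of cartilage, had 76.5, 86.9 and 90.1 CPM in Carm1 KO/KO and 128, 111 and 115 CPM in wild-type embryos (log2 fold change -0.48, edgeR adjusted p = 4.0e-06). Acan (aggrecan) had -0.63. Of 43 collagens 16 were called lower and 4 higher (median -0.16). Without Carm1 KO/KO replicate 1 or 2 or wild-type replicate 2, 2 were called higher, and in 1 fit of all 12 libraries 7 were called lower and none higher. Col1a2, the second chain of type I collagen, had 951, 992 and 973 CPM in Carm1 KO/KO and 1331, 1199 and 1154 CPM in wild-type embryos, and Col18a1, of basement membranes, rose (log2 fold change 0.37). Of 21 genes of keratins and epidermis 5 were called lower and 1 higher (3 without wild-type replicate 1), with Krt5 and Krt14, the keratins of basal cells, at -0.62 and -0.70 and Krt17 at -1.36.

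Among patterning genes, 9 of 37 tested Hox genes were called higher and 2 lower (median 0.16). None was called lower without Carm1 KO/KO replicate 1 or wild-type replicate 2, and 1 without Carm1 KO/KO replicate 2 or wild-type replicate 1. Hoxd4 had 50.5, 50.8 and 49.6 CPM in Carm1 KO/KO and 37.5, 33.6 and 33.9 CPM in wild-type embryos (log2 fold change 0.53, edgeR adjusted p = 1.6e-07). Hoxb4, Hoxc4 and Hoxd3 had 0.51, 0.31 and 0.31. Msx3, a homeobox gene of the dorsal neural tube, had 18.6, 18.0 and 18.8 CPM in Carm1 KO/KO and 9.49, 9.20 and 9.41 CPM in wild-type embryos. Shh, a signal of the notochord and floor plate, had 0.70. Of 41 Wnt and beta-catenin targets 11 were called higher and 6 lower, and 4 were called higher without Carm1 KO/KO replicate 1 and 7 without Carm1 KO/KO replicate 2, and 3 lower without wild-type replicate 2.

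Several other single genes rose. Stag3, a cohesin subunit of meiosis, had 18.1, 23.2 and 22.7 CPM in Carm1 KO/KO and 10.7, 10.1 and 10.8 CPM in wild-type embryos (log2 fold change 1.02, edgeR adjusted p = 5.6e-09). Asb4, an imprinted gene, had 147, 150.2 and 151 CPM in Carm1 KO/KO and 81.7, 79.5 and 85.3 CPM in wild-type embryos, a narrow spread within each group (standard error 0.046). Its neighbour Peg10, also imprinted, had a log2 fold change of 0.14. Of 62 imprinted genes 7 were called higher and 13 lower. Without Carm1 KO/KO replicate 2 or 3 or wild-type replicate 2, 4 were called higher, and without Carm1 KO/KO replicate 1 or wild-type replicate 2, 8 lower. Pld4, Ms4a6c, Ccdc73, Plac8, 5730457N03Rik and 1600016N20Rik had log2 fold changes between 0.82 and 1.01. Nxpe2 and 9430076G02Rik fell, with -1.44 and -1.32.

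The largest differences in CPM were not the largest folds. Among genes called lower they were Beta-s, Alb, Meg3, Afp, Actb and Col1a2, and among genes called higher Hbb-bh1, Miat, Pkm, Nes, Gapdh and Rpl12. Meg3, an imprinted long noncoding RNA, had 1248, 1328 and 1395 CPM in Carm1 KO/KO and 1739, 1556 and 1584 CPM in wild-type embryos (log2 fold change -0.30). Miat, a long noncoding RNA of the nervous system, had 0.32, and Pkm (pyruvate kinase) 0.22. Actb and Gapdh, often used as reference genes, had log2 fold changes of -0.16 and 0.17, and each lost its call in 5 of 16 alternatives. Genes called higher took 7.17% to 7.33% of all CPM in Carm1 KO/KO and 6.15% to 6.24% in wild-type embryos. Genes called lower took 6.14% to 6.34% in Carm1 KO/KO and 7.75% to 7.79% in wild-type embryos. The genes were chosen by their calls in these same libraries, so the direction of both gaps was set by the choice.

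Lists of basic cell functions differed in their share of calls. Of 79 cytosolic ribosomal protein genes 3 were called, of 76 mitochondrial ones 1, of 82 subunits of oxidative phosphorylation 3, and of 50 genes of replication and cell cycle 4. These lists had medians of -0.03, 0.02, 0.00 and 0.04, and their shares were under the 13.3% of all genes. Without 1 library the counts ranged from 3 to 7, 0 to 2, 0 to 6 and 1 to 6, the highest without wild-type replicate 1 for cytosolic ribosomal proteins and for replication and cell cycle, without wild-type replicate 1 or 3 for mitochondrial ribosomal proteins and without wild-type replicate 3 for oxidative phosphorylation. The lowest were without wild-type replicate 2 for mitochondrial ribosomal proteins and without Carm1 KO/KO replicate 1 for oxidative phosphorylation and for replication and cell cycle. With length and GC offsets 13 genes of replication and cell cycle were called. Of 73 splicing factors 10 were called (13.7%) and of 49 replication-dependent histones 7 (14.3%), both near the background. The count of splicing factors was 2 to 5 without any 1 Carm1 KO/KO library or wild-type replicate 2, 12 without wild-type replicate 1 or 3 and 35 with the offsets. Of 18 tested interferon response genes 4 were called higher and none lower (median 0.34), Bst2, Oasl2, Irf7 and Xaf1, and 2 without Carm1 KO/KO replicate 1. Among 10 arginine methyltransferases Prmt5 was called higher (0.15) and Carm1 and Prmt2 (-0.22) lower. The call of Prmt2 was lost without Carm1 KO/KO replicate 2 or wild-type replicate 2, and that of Prmt5 without any 1 Carm1 KO/KO library or wild-type replicate 2. The 4 tested genes of placenta and decidua gave no call in edgeR, and their list summed to 14.2 to 18.0 CPM in every library. Of 16 tested genes of yolk sac endoderm, a list that shares Ttr with the secreted hepatocyte proteins, 6 were called lower and 2 higher (median -0.39). That list summed to 363 to 376 CPM in Carm1 KO/KO and 414 to 476 CPM in wild-type embryos.

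**Figure D5:**
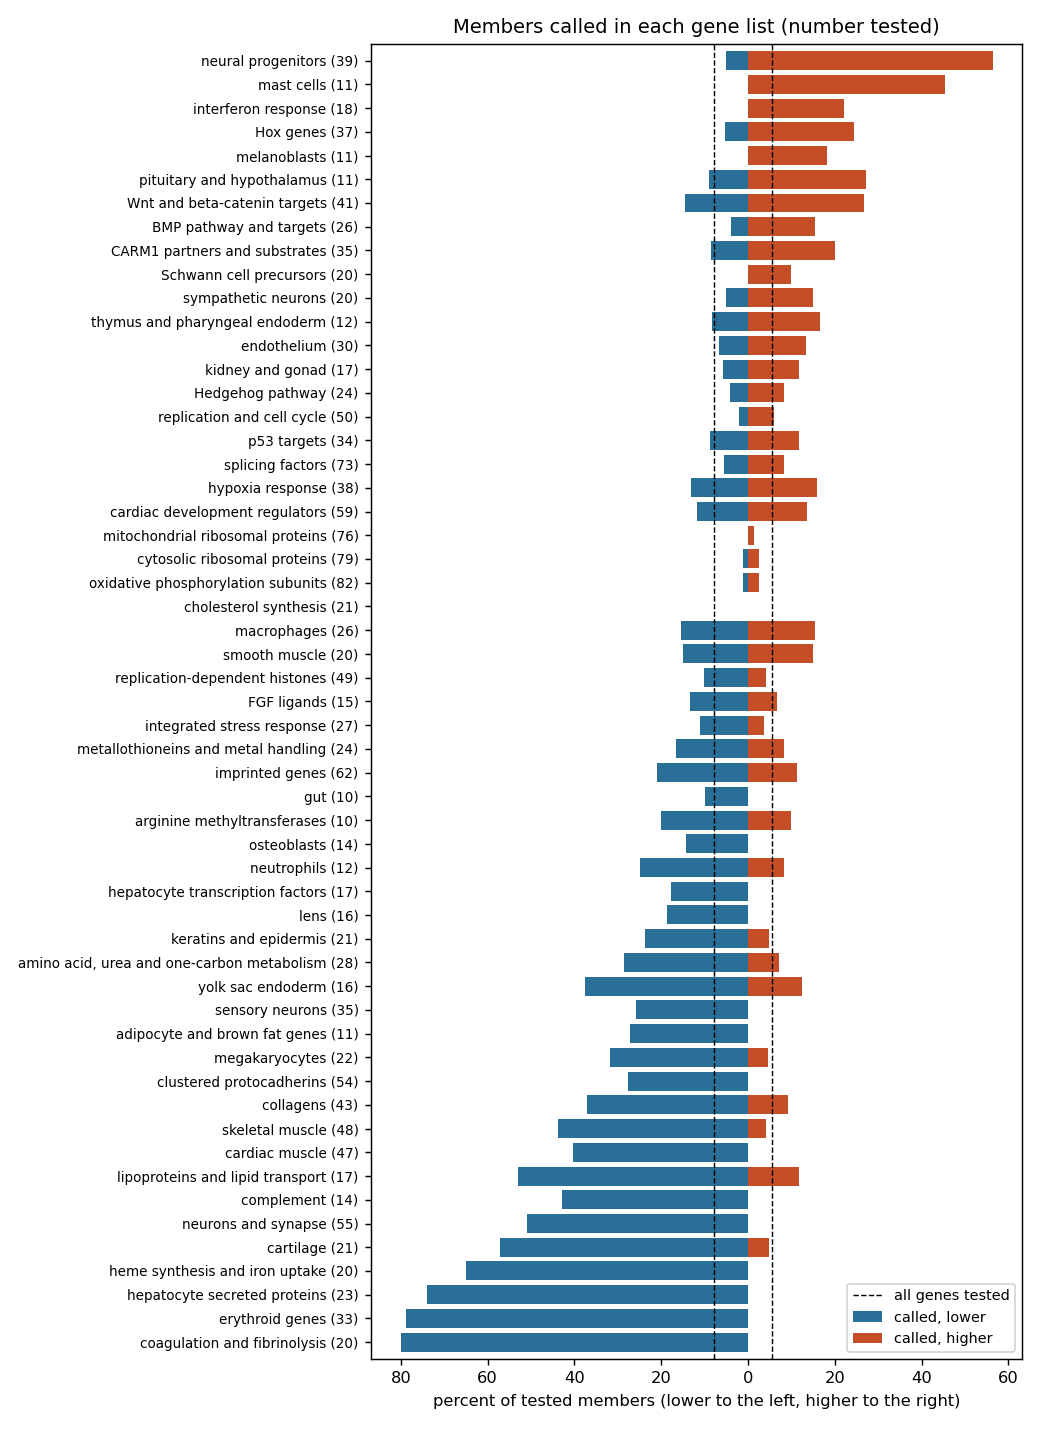
Bars give the percent of tested members of each list called lower (left) or higher (right), for lists with at least 10 tested members, and dashed lines give the shares over all genes tested, 7.83% and 5.49%. Coagulation, erythroid and secreted hepatocyte genes reach furthest to the left and neural progenitors furthest to the right.

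Genes linked to Carm1 were counted apart from the rest. Carm1 starts at position 21546894 of chromosome 9. Within 5 Mb on each side 81 other genes were tested and 8 called, or 9.88%, against 13.3% of all genes. The share moved with the window, from 7.46% within 1 Mb to 10.4% within 10 Mb and 13.5% within 20 Mb. Of the 8 called within 5 Mb, Icam4, an adhesion protein of red cells, and Epor fell most (-0.79 and -0.62), and both are expressed by red cells. Pde4a, Zfp558, Bmper and Zfp426 had log2 fold changes of -0.43, -0.28, -0.27 and -0.21. By chromosome, the share of tested genes called ranged from 10.7% on chromosome 16 to 16.0% on chromosome 19, with 14.1% on chromosome 9.

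The difference between the effects in the 2 lines was tested as an interaction in 1 fit of all 12 libraries, where 3115 of 16292 genes, or 19.1%, were called. The lines have separate controls, but mutation, strain and breeding colony differ together and cannot be told apart. Afp had log2 fold changes of -0.66 in Carm1 KO/KO and -0.38 in Pax3 Sp2H/Sp2H embryos, and the difference was not called (edgeR adjusted p = 0.12). Serpina6 had -1.14 and -0.12 (edgeR adjusted p of the difference 0.0048). For red cell genes, Tal1 had -0.58 and 0.09 (edgeR adjusted p of the difference 5.9e-05). Myl1, a myosin light chain of fast muscle, fell in both lines, with -0.82 and -0.87 (edgeR adjusted p of the difference 0.75), while Tnnt2, of cardiac troponin, had -0.51 and 0.26 (edgeR adjusted p of the difference 3.6e-08). Hes5 had 0.55 and 0.50, with no call for the difference (edgeR adjusted p = 0.81).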

How the data were processed

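RNA was taken from 6 homogenized whole embryos of the Carm1 line and, for the test between lines, 6 of the Pax3 line, 1 library each. The deposited counts are whole numbers per gene, which the authors made from polyA-selected paired reads with STAR on mm10 and featureCounts, without normalization or pooling. Versions, strand setting and the handling of multiply aligned reads are not given in the sources used here. Groups and replicate numbers came from the labels. The labels do not say which embryos shared a litter, so p-values measure the spread between these embryos only.

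Counts were tested with edgeR 4.0.16 in R 4.3.3 (quasi-likelihood test, robust, TMM, filterByExpr, Benjamini-Hochberg, threshold 0.05). DESeq2 1.42.0 was an alternative, beside other scalings, filters and covariates. The scripts were tested on simulated data. GENCODE matched 21777 of 23420 symbols exactly and 1278 by an earlier name. No 2 libraries were identical, with totals of 17183344 to 23297860 counts.

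The gene lists and members were chosen with earlier results of these data known. Named are Carm1, the 12 genes higher and 12 lower by fold (at least 5 CPM, no overlap), the 6 higher and 6 lower by CPM difference, up to 4 called genes per list by adjusted p, and up to 6 within 5 Mb of Carm1. Fga, Fgb, F2, Apoc3, Gata1, Klf1, Alas2, Tpsb2, Myh6, Myh7, Peg10, Fcgr1, Fcgr3, Mpeg1 and Emr1 were chosen after their values were seen. Some genes within this rule are not reported here.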

Additional observations from a re-analysis of the deposited data

Results flagged for a closer look

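Among the 24 genes with the largest fold changes, 21 were marked because the effect in the Carm1 line differed from that in the Pax3 line by the edgeR interaction test. Over all genes in that test, 19.1% were called. The difference, in log2 units and Carm1 line minus Pax3 line, was 1.79 for Cpa3, 1.07 for Hbb-bh1, 1.32 for Mpo, 0.918 for Stag3, 0.915 for 5730457N03Rik, 0.989 for Pld4, 0.918 for Msx3, 1.08 for Ms4a6c, 1.10 for Asb4 and 0.684 for Ccdc73. Among genes lower in Carm1 KO/KO embryos it was -1.38 for Ugt2b34, -0.919 for Pzp, -1.72 for Beta-s, -1.33 for Nxpe2, -1.58 for Serpina1a, -0.989 for Alb, -1.74 for Krt17, -1.05 for 9430076G02Rik, -1.23 for Fgg, -0.97 for Hnf4a and -1.34 for Serpinc1. The genes were chosen for their change in the Carm1 line, so differences in this direction come in part from the choice. Strain and breeding colony differ between the lines along with the mutation and cannot be told apart from it.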

How the results depend on the processing

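The number of genes called moved most with the length and GC offsets, to 3263 (1961 higher), and with DESeq2 with a term for Y-linked counts, to 864 (310 higher and 554 lower). DESeq2 alone gave 1435. With that term, 12 cardiac muscle, 5 sensory neuron and 4 protocadherin genes were called lower, and 13 neural progenitor and 5 Hox genes higher. Leaving out 1 library gave 1224 to 2290 genes, 469 to 1015 higher and 755 to 1275 lower, with the lowest counts without Carm1 KO/KO replicate 1 and the highest without wild-type replicate 1. The counts were 1381 without Carm1 KO/KO replicate 2 and 1349 without wild-type replicate 2. The cause was not tested. The labels do not say whether same-numbered embryos were paired. Deviations of same-numbered samples had correlations of -0.0411, 0.0008 and -0.042, and with a replicate block 1787 genes were called. With 3 libraries per group, these correlations cannot show whether embryos shared a litter. Of 211 named genes, 126 kept their call in all 16 alternatives, 6 kept it in each alternative that tested them (14 or 15), 79 lost it in at least 1 and none changed direction. Genes called in both fits had the same direction in every alternative. The log2 fold change of Carm1 stayed between -1.04 and -0.97 when 1 library was left out, and the genes called for the line difference numbered 2311 to 3390. Low counts limit genes under 1 CPM, where the median standard error was 0.417 on the log2 scale.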
